A study of Homo sapiens with 26 samples.

Results

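The genes of 8 liver transcription factors were examined for binding peaks of 5 HALO-tagged constructs in BJ, an established fibroblast line from human foreskin. The genes were FOXA1, FOXA2, FOXA3, HNF4A, HNF4G, ONECUT1, PROX1 and NR1H4. A peak, meaning 1 row of an authors' peak list, belonged to a gene when it overlapped the gene body or the 50 kb on either side. By that rule 23 of 155652 peaks of the FOXA1 list lay at the 8 genes, as did 7 of 28831 FOXA1dbd peaks, 25 of 105591 FOXA1nhaa peaks, 21 of 71202 FOXA1rraa peaks and 21 of 38291 HNF4A peaks. These 97 peaks formed 64 separate sites, of which 48 appeared in 1 list, 6 in 2 lists, 8 in 3 lists and 2 in 4 lists. No site appeared in all 5 lists. Of the 21 FOXA1rraa peaks, 10 were rows of the FOXA1nhaa list and 5 were rows of the FOXA1 list, with the same coordinates. Every site in 3 or 4 lists counts such a repeated row, so these numbers do not come from independent lists.

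Binding was measured by ChIP-seq against the tag after 48 hours of ectopic expression, on sonicated, formaldehyde-fixed chromatin. The groups used here were cells given FOXA1, HNF4A, or 1 of 3 FOXA1 variants that the labels name dbd, nhaa and rraa without saying what was changed. All groups share the cell line, the tag and the antibody, and each is labelled with 2 ChIP and 2 input libraries but has 1 full peak list, so there was no replicate error and no difference between constructs could be tested. Samples of tagged histone H2B were not analysed here. Read counts are not part of the lists and the depth behind each peak is unknown, and no expression data were used, so the cell type was not checked against markers. Intervals are 95% Wilson intervals over peaks and cover counting error only.

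FOXA1, FOXA2 and FOXA3 are forkhead factors of the liver and other endodermal organs, and the first of them is the classic example of a factor that can bind its site in closed chromatin. HNF4A and its paralog HNF4G are nuclear receptors, ONECUT1 (also called HNF6) and PROX1 carry DNA-binding domains of the homeodomain type, and NR1H4 (FXR) is the nuclear receptor that senses bile acids. In hepatocytes these factors bind near each other's genes and form a cross-regulating network. Fibroblasts are not a cell type in which that network is known to act.

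Core motifs were looked for on both strands in the central 200 bases of each peak. The forkhead core was TGTTTAC or TATTTAC, which cannot overlap each other at the same position, and the HNF4 core was CAAAGTCCA. The sequences below are those of the highest-ranked FOXA1 peak with a forkhead core at FOXA1, PROX1 and NR1H4, and, for PROX1, also that of the highest-ranked FOXA1nhaa peak with one. Each is the plus strand of GRCh37 (hg19), written 5′ to 3′, with the core in capitals.
FOXA1 upstream peak, chr14:38110320-38110519: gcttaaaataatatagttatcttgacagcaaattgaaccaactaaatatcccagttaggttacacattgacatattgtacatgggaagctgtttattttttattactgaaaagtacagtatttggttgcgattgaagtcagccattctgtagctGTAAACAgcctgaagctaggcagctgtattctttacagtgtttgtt
PROX1 intron peak of FOXA1, chr1:214201049-214201248: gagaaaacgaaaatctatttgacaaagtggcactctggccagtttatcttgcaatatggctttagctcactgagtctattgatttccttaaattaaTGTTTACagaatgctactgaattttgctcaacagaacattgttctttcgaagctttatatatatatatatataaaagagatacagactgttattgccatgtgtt
PROX1 intron peak of FOXA1nhaa, chr1:214203233-214203430: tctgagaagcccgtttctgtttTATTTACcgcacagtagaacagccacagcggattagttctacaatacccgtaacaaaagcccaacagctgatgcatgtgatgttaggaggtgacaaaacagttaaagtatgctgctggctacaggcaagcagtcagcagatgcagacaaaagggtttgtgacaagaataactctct
NR1H4 intron peak, chr12:100883010-100883209: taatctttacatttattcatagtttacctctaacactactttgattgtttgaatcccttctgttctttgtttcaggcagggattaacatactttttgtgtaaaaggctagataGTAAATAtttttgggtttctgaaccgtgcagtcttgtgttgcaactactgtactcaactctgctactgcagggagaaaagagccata
The cores of the FOXA1 upstream peak and the NR1H4 intron peak lie on the minus strand and so appear as the reverse complement.

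The second set shows peaks that stand out by position and hold no forkhead core in this window. They are the NR1H4 downstream site, where peaks of FOXA1 and its 3 variants coincide, and the peaks close to an annotated start of FOXA1 and of ONECUT1. The start peaks both lie in exons of noncoding transcripts. The NR1H4 sequence is the central window of a FOXA1dbd peak at that site, and the start sequences are those of FOXA1-list peaks.
NR1H4 downstream peak, chr12:100970523-100970722: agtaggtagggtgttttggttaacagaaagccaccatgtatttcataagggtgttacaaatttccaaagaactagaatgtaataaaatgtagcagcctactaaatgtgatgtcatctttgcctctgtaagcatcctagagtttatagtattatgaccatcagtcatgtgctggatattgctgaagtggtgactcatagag
FOXA1 start peak, chr14:38063135-38063276: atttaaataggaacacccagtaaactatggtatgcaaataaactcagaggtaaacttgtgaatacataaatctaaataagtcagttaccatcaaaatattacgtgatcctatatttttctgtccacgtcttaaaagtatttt
ONECUT1 start peak, chr15:53072820-53073019: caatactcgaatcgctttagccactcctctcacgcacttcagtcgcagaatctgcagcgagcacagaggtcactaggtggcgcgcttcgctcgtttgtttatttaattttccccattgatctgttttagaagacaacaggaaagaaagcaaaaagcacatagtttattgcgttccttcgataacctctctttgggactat
In the FOXA1 list, 6 of the 23 peaks at the 8 genes held a forkhead core (26.1%, 12.5 to 46.5), compared with 18.2% of the whole list. With 100 kb on either side the share was 12.9% (9 of 70), so its place above or below that of the whole list depends on the window. The counts were 0 of 7 in the FOXA1dbd list against 22.1% of that list, 3 of 25 in the FOXA1nhaa list against 13.6%, and 0 of 21 in the HNF4A list against 3.25%. The 2 FOXA1rraa peaks with a core were rows that this list has in common with the FOXA1 or the FOXA1nhaa list. No FOXA1 or HNF4A peak at the 8 genes held the HNF4 core, which occurs in 0.261% of the FOXA1 list and 0.992% of the HNF4A list. The upper bound for 0 of 21 is 15.5%.

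The 8 genes were not crowded with peaks. At least 1 FOXA1 peak was found at 7 of them, where 87.1% of 20163 protein-coding genes have one by the same rule. FOXA1dbd had one at 4 of 8 (59.6% of all genes) and FOXA1nhaa at 5 of 8 (81.7%). FOXA1rraa had one at 7 of 8 (74.9%) and HNF4A at 5 of 8 (83.5%). At FOXA3, HNF4A and HNF4G the FOXA1rraa peaks were all rows of the FOXA1 or the FOXA1nhaa list. The median density of FOXA1 peaks was 1.5 per 100 kb over the 8 genes and 4.0 over all genes, and 1 of the 8 lay above the latter. The corresponding medians of FOXA1dbd were 0.386 and 0.743. They were 1.20 and 2.62 with FOXA1nhaa, 1.20 and 1.71 with FOXA1rraa, and 1.26 and 2.29 with HNF4A. In each of the 5 lists, then, the median of the 8 genes was below that of all genes. The genes above the all-gene median numbered 4 of 8 with FOXA1dbd, which had no peak at the other 4, 2 of 8 with FOXA1nhaa, 3 of 8 with FOXA1rraa and 2 of 8 with HNF4A. The last 2 were FOXA3 and HNF4A. Of the 12 HNF4A-list peaks at HNF4A, 10 lay on its coding exons. The other 2 alone would put that gene below the all-gene median.

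**Figure D1:**
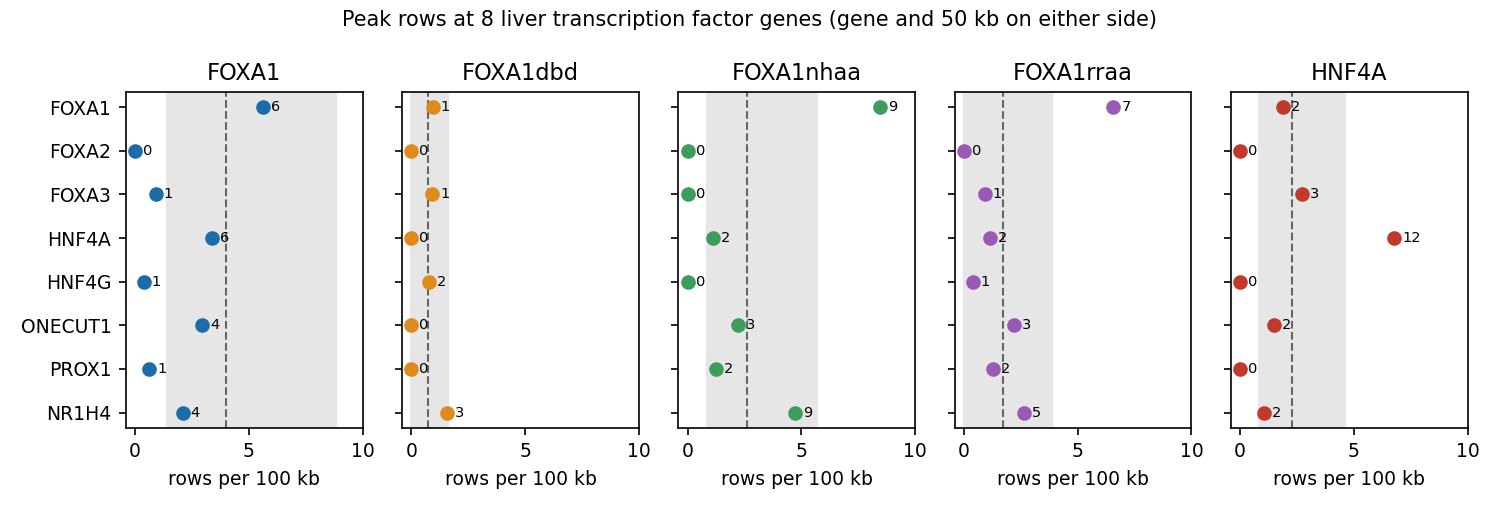
Peaks per 100 kb of gene and flanks (x axis) for each of the 8 genes (y axis) in the 5 lists, with the number of peaks printed beside each point, the median over 20163 protein-coding genes as a dashed line and their middle 50% in grey. FOXA2 is at 0 in every panel, while FOXA1 stands highest in the FOXA1, FOXA1nhaa and FOXA1rraa panels and HNF4A in the HNF4A panel with 12 peaks.

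Peaks at gene starts were counted next. Within 1000 bp of an annotated start of a gene of the set, the FOXA1 list had a peak centre at 2 of the 8 genes (24.4% of all genes), namely FOXA1 and ONECUT1. FOXA1dbd had none (7.41%), FOXA1nhaa none (19.2%), FOXA1rraa 1, at FOXA1 and a row of the FOXA1 list (14.3%), and HNF4A 1, at HNF4A (47.3%). This last peak, centred 1 bp from a start, covers the first coding exon described further on. For 8 of the 23 FOXA1 peaks the nearest start of a protein-coding gene was that of the gene itself. The same held for 12 of the 21 HNF4A peaks, of which 10 lie on coding exons of HNF4A, and for 2 of the 11 without these. The other peaks are nearer to neighbours, such as MIPOL1 and TTC6 beside FOXA1, GAS2L3 beside NR1H4 and ATOSA beside ONECUT1.

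The limit of 50 kb decides which of these distant peaks count. The FOXA1 peak farthest inside it lay 49320 bp beyond ONECUT1 with a score of 52, and the nearest one outside lay 50257 bp beyond NR1H4 with a score of 116. In the HNF4A list the corresponding distances were 48146 bp (FOXA1, score 59) and 75393 bp (ONECUT1, score 114).

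FOXA1, the pioneer factor itself, had the densest FOXA1, FOXA1nhaa and FOXA1rraa peaks of the 8 genes. FOXA1dbd peaks were densest at NR1H4, with 1.57 per 100 kb against 0.939 at FOXA1. The FOXA1 window held 6 FOXA1 peaks, 1 FOXA1dbd peak, 9 FOXA1nhaa peaks, 7 FOXA1rraa peaks and 2 HNF4A peaks. At 8.45 per 100 kb the FOXA1nhaa density exceeded that of 88.3% of genes, and the FOXA1rraa density of 6.57 exceeded that of 89.9%. Most FOXA1rraa peaks there were rows of the FOXA1nhaa list, so the densities of these lists are not independent. The FOXA1 density of 5.63 exceeded that of 60.1% of genes. Most of these peaks were in the neighbouring gene MIPOL1, downstream of FOXA1.

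The highest-ranked FOXA1 peak of the set lay 45156 bp upstream of the FOXA1 gene, at chr14:38110160-38110680 in an intron of TTC6. Its score was 535, above 99.3% of the FOXA1 list. The score is the authors' own measure of a peak, and it follows −log10 q in the lists that give both. The FOXA1nhaa list had a peak inside the same site with a score of 104 (above 61.9% of its list), and the FOXA1rraa list holds that same row. FOXA1dbd and HNF4A had no peak there. Scores belong to their own lists, so 535 and 104 are not a measured drop.

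A group of peaks downstream of FOXA1, within MIPOL1, carried the other FOXA1 peaks outside the gene. Their scores in the FOXA1 list were 66, 149, 215 and 116. FOXA1nhaa peaks overlapped all 4, and FOXA1rraa peaks 3 of them. The highest-ranked FOXA1rraa peak at FOXA1 was among these, at chr14:38031714-38032702, with a score of 134, above 63.7% of its list. It was the same row, with the same score and fold enrichment, in FOXA1nhaa. The highest-ranked FOXA1nhaa peak at FOXA1, at chr14:38013413-38013985, scored 218 with a fold enrichment of 9.80, above 94.6% of its list, and was seen in that list alone. The single FOXA1dbd peak, with a score of 78, lay at chr14:38049329-38049612 between genes, where no other list had a peak.

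The FOXA1 gene itself held 2 kinds of peak. The first is the start peak printed above, chr14:38063135-38063276, which is 142 bp wide, lies wholly inside an exon of a noncoding FOXA1 transcript and is centred 261 bp from an annotated start. It had a score of 105 and the same coordinates in the FOXA1 and FOXA1rraa lists. The second was in the HNF4A list alone.

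That HNF4A peak, chr14:38060742-38061868, lay wholly inside the large second coding exon of FOXA1 (38060573 to 38061916). It was 1127 bp wide, covered 83.9% of the 1344 coding bases of that exon, and ended 48 bp short of the exon's first base and 169 bp short of its last coding base. Its score of 763 was above 99.0% of the HNF4A list and its fold enrichment of 16.6 above 97.4%. It was also wider than 99.2% of the list, against a median of 287 bp. Its GC content was 68.1% against a list median of 52%, and it held 107 CpG dinucleotides. The part of base composition in this peak was not tested. None of the FOXA1, FOXA1dbd, FOXA1nhaa or FOXA1rraa lists had a peak on a coding exon of FOXA1, and their nearest peaks lay 830, 10961, 27016 and 830 bp from one.

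FOXA2, the forkhead factor needed to form the node and foregut, had no peak in any list. Its window of 104.458 kb is the shortest of the 8. By the shares given above, most protein-coding genes had a peak in each list. FOXA3, a forkhead factor of liver, pancreas and gut, had 1 FOXA1 peak, at chr19:46349661-46350092 in an intron of SYMPK and 17370 bp upstream. Its score of 196 was above 74.8% of the list, the FOXA1rraa list holds the same row with a fold enrichment of 7.74, and a FOXA1dbd peak with a score of 54 lay inside it. FOXA1nhaa had none at FOXA3. The 3 HNF4A peaks at FOXA3 all lay downstream, with scores of 48, 147 and 167.

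**Figure D2:**
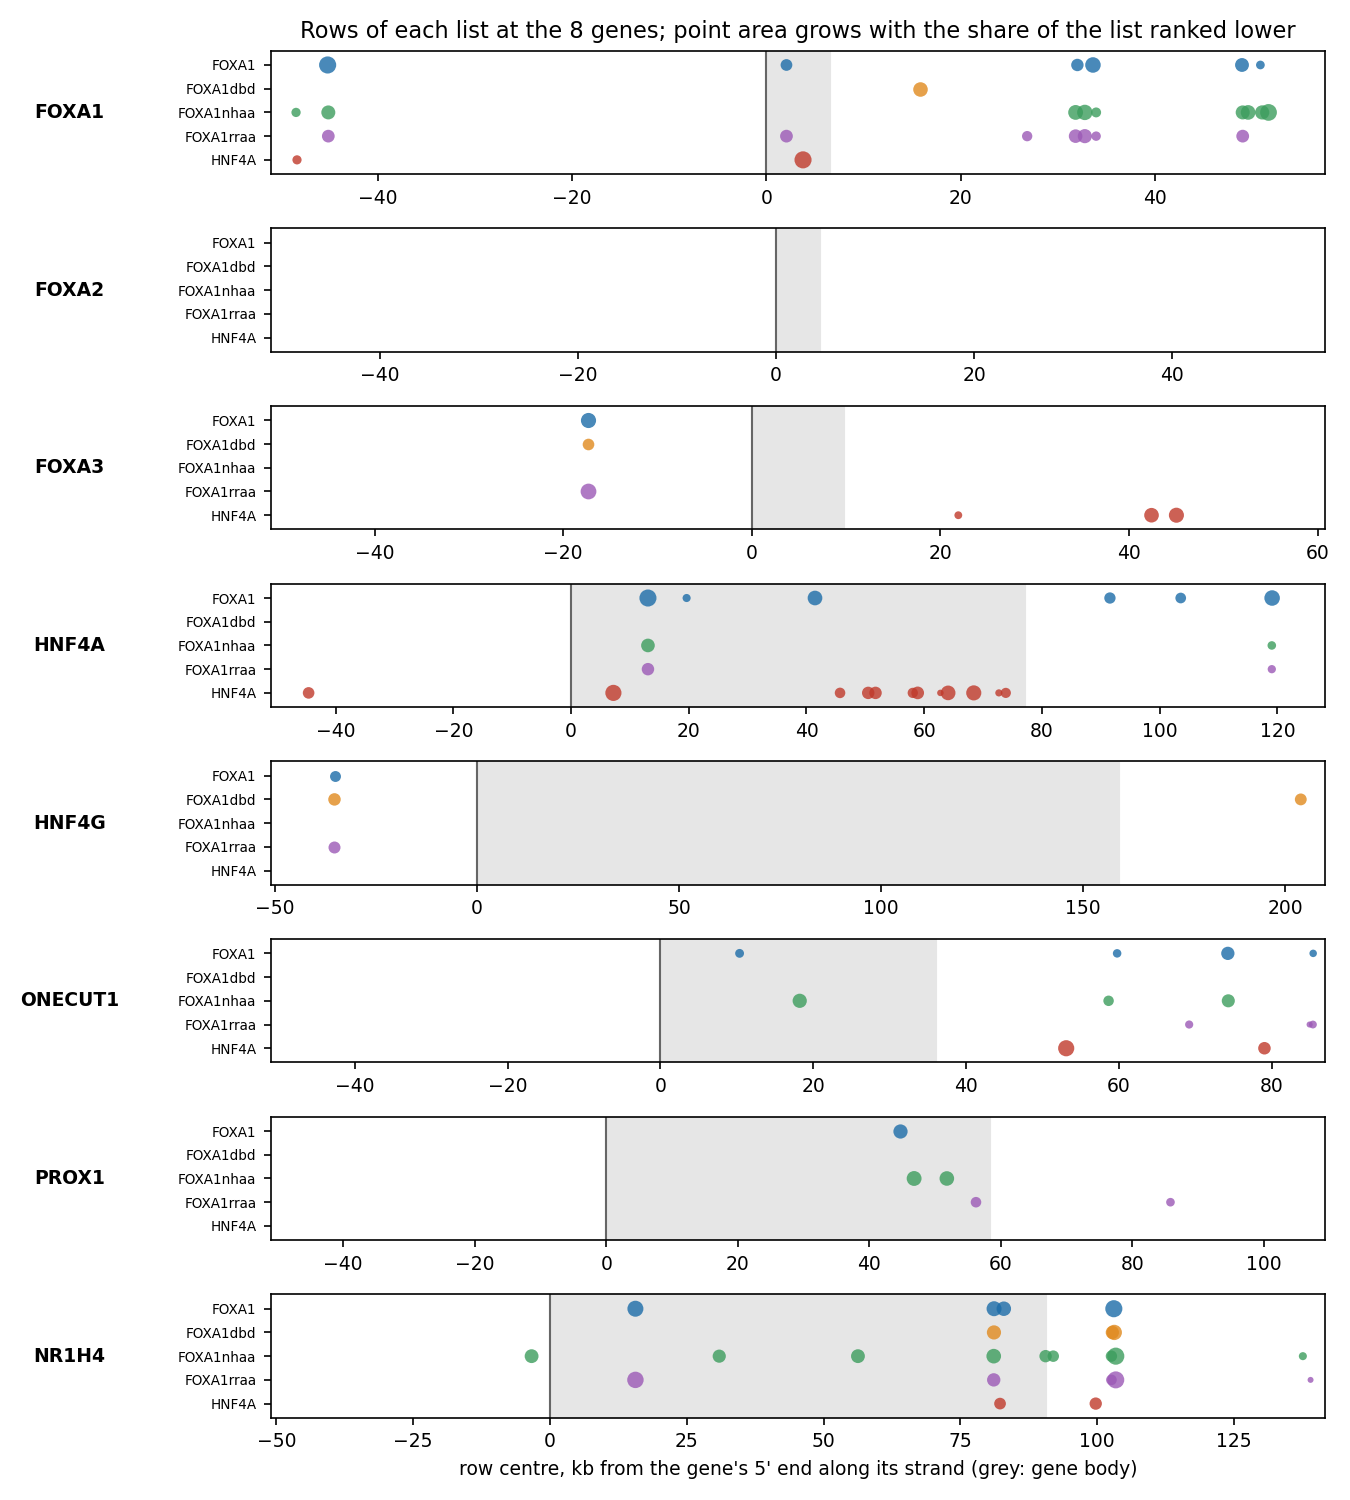
Position of every peak at the 8 genes, as the distance of its centre from the gene's 5′ end along its strand in kb (x axis), with 1 line for each list and the gene body in grey. The area of a point grows with the share of its list that is ranked lower, and the row of HNF4A-list points inside the HNF4A gene contrasts with the scattered single points elsewhere.

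HNF4A, the nuclear receptor at the centre of the hepatocyte network, had 12 peaks in the HNF4A list, 6.77 per 100 kb, which exceeded the density at 87.5% of genes. Of these, 10 lay inside the gene on its coding exons. They were 10 separate peaks, 1 on each of the 10 coding exons of transcript HNF4A-201, which begins at the promoter used in adult liver (P1). HNF4A-202 begins at the upstream P2 promoter, and 9 of its 10 coding exons were covered, its own first coding exon being the exception. Without these 10 peaks, the HNF4A list had 2 peaks at HNF4A and 11 at the 8 genes in all.

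The exon peaks followed the exons closely. They began 76 to 135 bp before the first coding base, and 8 of them covered their coding exon completely and ended up to 123 bp after it. The midpoint of those 8 peaks was within 13 bp of the middle of the coding exon. The peaks on exons 6 and 9 ended 27 and 44 bp before the last coding base, and their midpoints lay 71 and 68 bp before the exon middle. On exon 10 the peak, chr20:43058057-43058382, covered the 140 coding bases and ended 80 bp after them. The peak on exon 4, chr20:43042213-43042558, reached 121 bp before the 107 coding bases and 118 bp after them. It thus spans both splice junctions, shown here with coding bases in capitals and intron bases in lower case, plus strand of GRCh37.
HNF4A coding exon 4, first junction, chr20:43042319-43042348: tgtgcctcctcacagCCGTCCAGAATGAGC
HNF4A coding exon 4, second junction, chr20:43042426-43042455: GTCCTGTCCCGACAGgtaccggggtgatcc
The capitals give the first and the last 15 coding bases of the exon. Only 1 of the exon peaks, on exon 3 at chr20:43035913-43036232, lay wholly within annotated exons, where alternative exons extend beyond these coding bases. Together with the peak in the FOXA1 coding exon and the FOXA1 start peak, which 2 lists hold, this gives 4 rows confined to exons of FOXA1 or HNF4A. The number was 13 when a single exon base was enough and 11 when a single coding base was enough, both criteria chosen after the data were seen.

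The exon peaks also differed from the rest of the list in their values. In exon order the scores were 71, 92, 93, 67, 99, 35, 148, 168, 41 and 67. The fold enrichments in the same order were 2.52, 2.41, 2.99, 2.72, 2.73, 2.60, 3.32, 2.95, 2.15 and 2.58. Their median fold enrichment was 2.66, where that of the whole list was 5.92, and 1.63% of the list, 624 peaks, had a fold enrichment as low as the highest of the 10. The other 11 HNF4A peaks at the 8 genes ranged from 4.48 to 16.6, so the sets did not overlap. For that fold enrichment the −log10 q was high. It ranged from 3.52 to 16.9 with a median of 8.21, whereas the median of the other 614 peaks at or below that fold was 2.79. Of these 614 peaks, 157 reached 3.52 and 5 reached 8.21.

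**Figure D3:**
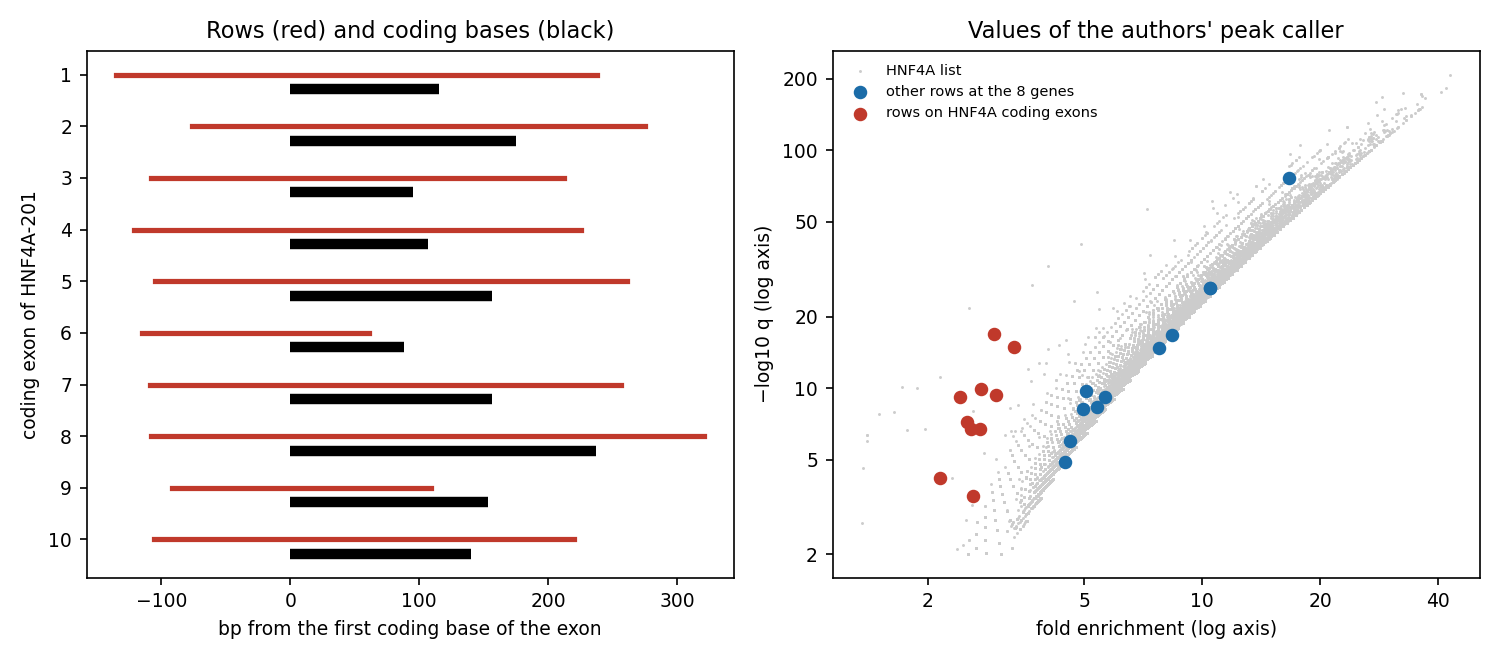
Left, extent of the 10 HNF4A-list peaks (red) around the coding bases (black) of each exon of HNF4A-201, in bp from the first coding base. Right, fold enrichment against −log10 q, both as the authors' peak caller gave them and on log axes. Shown are the whole HNF4A list (grey), the 10 exon peaks (red) and the other 11 peaks at the 8 genes (blue). The red points lie at low fold enrichment, where some grey points reach the −log10 q of the lower red ones.

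Such coverage of coding exons was rare in the HNF4A list. Of 13291 genes with at least 5 coding exons in their canonical transcript, 12 (0.0903%) had more than 50% of them overlapped by an HNF4A peak. HNF4A came highest with 90% (9 of 10, its canonical transcript starting at P2), the next genes, COMTD1, DRAP1 and TBX2, reached 71.4%, and the median over all these genes was 0. COMTD1 and DRAP1 reached theirs with 2 peaks each, so that single peaks spanned several exons. TBX2 had 5 of 7 coding exons covered and 8 peaks in the span of these exons. That span includes introns, so not all of the 8 need touch a coding exon. This scan was chosen after the exon peaks had been seen.

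Coding bases of any protein-coding gene were held by 13 of the 21 HNF4A peaks at the 8 genes, where 12.8% of the list hold one. For the other lists the counts were 1 of 23 in FOXA1 (4.13% of the list), 0 of 7 in FOXA1dbd (2.15%), 2 of 25 in FOXA1nhaa (4.80%) and 2 of 21 in FOXA1rraa (4.92%). None of the 4 lists of FOXA1 constructs had a peak on a coding exon of HNF4A. A factor expressed ectopically is usually introduced as its coding sequence, without introns. The exon peaks of HNF4A appeared in the list of the HNF4A construct alone, while the peak on the FOXA1 coding exon appeared in that same list and in none of the FOXA1 constructs. The part of introduced DNA in either was not tested.

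Away from the exons, HNF4A held a high-ranking FOXA1 peak. It lay at chr20:42997199-42997611 in an intron, 13066 bp from the 5′ end of the gene, with a score of 470, above 98.6% of the FOXA1 list. FOXA1nhaa and FOXA1rraa held 1 row in common inside it, with a score of 100. A FOXA1 peak with a score of 175, at chr20:43025621-43025948 inside the gene, was in the FOXA1 list alone. Of the 3 FOXA1 peaks downstream, with scores of 98, 90 and 215, the last was shared with FOXA1nhaa and FOXA1rraa.

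The HNF4A construct had 2 peaks at HNF4A that were not on its coding exons. One, at chr20:42991363-42991680 in an intron 7196 bp from the 5′ end, scored 262 with a fold enrichment of 10.5, above 87.0% of the list by rank. The other had a score of 82 and lay 44585 bp upstream in a coding exon of FITM2. FOXA1dbd had no peak in the whole HNF4A window.

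HNF4G, the paralog of HNF4A, had few peaks. Its window is the longest of the 8, at 258.921 kb, and held 1 FOXA1 peak with a score of 93, at a site 35251 bp upstream that the FOXA1rraa list repeats as the same row. FOXA1dbd had a peak with a score of 60 there and another with a score of 55 downstream of the gene, a density of 0.772 per 100 kb beside the all-gene median of 0.743. FOXA1nhaa and HNF4A had none.

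ONECUT1 had 4 FOXA1 peaks, all in the lower part of the list or near its middle, with scores of 68, 63, 134 and 52. The first of these is the start peak printed above, chr15:53072799-53073040, centred 460 bp from an annotated start inside an exon of a noncoding transcript, and no other list had it. Its score was above 16.8% of the list. The peak with a score of 134 was overlapped by a FOXA1nhaa peak with a score of 93, and that with a score of 52 was the same row in FOXA1rraa. The HNF4A list had 2 peaks downstream of ONECUT1, of which chr15:53029939-53030303 scored 262 with a fold enrichment of 10.5 and the other scored 96. The 2 other FOXA1nhaa peaks there scored 109, in an intron, and 69, and the 2 other FOXA1rraa peaks scored 32 and 53.

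PROX1, which hepatocytes share with lymphatic endothelium, was bound by FOXA1, FOXA1nhaa and FOXA1rraa at 5 different sites, none of them shared. The only FOXA1 peak, chr1:214201008-214201290, had a score of 161, above 64.5% of the list, and holds the TGTTTAC printed above. The 2 FOXA1nhaa peaks, at chr1:214203233-214203525 and chr1:214208184-214208451, had scores of 122 and 115 and both hold TATTTAC in their central 200 bases. These 3 peaks lay in introns within the last part of the gene, 44625 to 51782 bp from its 5′ end. The FOXA1rraa list had a peak with a score of 76 inside the exon of an untranslated region and another with a score of 57 downstream. HNF4A and FOXA1dbd had no peak at PROX1.

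NR1H4, the bile acid receptor, held the sites that the FOXA1 constructs shared most widely. Of the 64 sites, 2 were in the lists of FOXA1 and all 3 variants, and both were at NR1H4. The first was the downstream site chr12:100969948-100971135 in an intron of GAS2L3, where the FOXA1 peak was 1188 bp wide with a score of 502, above 99.0% of the list. FOXA1dbd had 2 peaks there with scores of 65 and 89. FOXA1nhaa also had 2, with scores of 76 and 366, the second with a fold enrichment of 13 and above 99.4% of its list, and FOXA1rraa held the same 2 rows. It was the highest-ranked site of the set for FOXA1nhaa, FOXA1rraa and FOXA1dbd.

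The second shared site, chr12:100948495-100948809, lay in an intron of NR1H4, with scores of 188 in FOXA1, 74 in FOXA1dbd and 116 in the row common to FOXA1nhaa and FOXA1rraa. The intron peak with TATTTAC, chr12:100882949-100883271, had a score of 248 and was the same row in the FOXA1 and FOXA1rraa lists. A further FOXA1 peak with a score of 170 was in that list alone. FOXA1nhaa had 9 peaks at NR1H4, of which 6 were in its list alone, and the 2 HNF4A peaks, with scores of 83 and 91, overlapped no other.

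**Figure D4:**
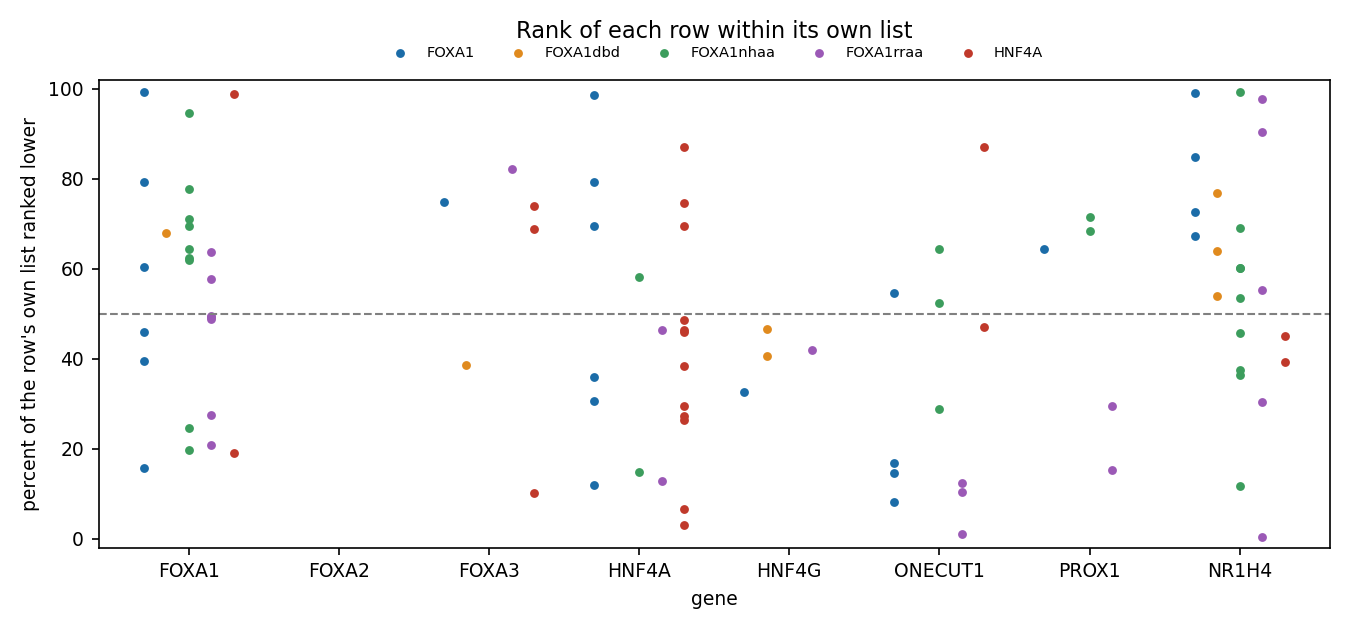
Rank of every peak within its own list, as the percent of that list ranked lower (y axis), by gene (x axis) and list (colour), with the middle of a list dashed. Peaks above 98% are found at FOXA1, HNF4A and NR1H4. The top peaks of FOXA1, FOXA1nhaa and FOXA1rraa at NR1H4 belong to a shared site, where FOXA1nhaa and FOXA1rraa hold the same row.

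Within their lists the peaks at the 8 genes spread over most ranks. The FOXA1 peaks had a median score of 149 (52 to 535) and ranked above 60.5% of the list at the median, and 13 of 23 were in the upper 50%. The median percent ranked lower was 54.0 with FOXA1dbd and 60.3 with FOXA1nhaa. FOXA1rraa, most of whose peaks here carry the scores of another list, reached 42.1 and HNF4A 46.1. The base composition of the peaks differed between the constructs, with a median GC content of 33.9% for FOXA1 and 59.7% for HNF4A, a set that includes the 10 coding-exon peaks.

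Sharing of sites between FOXA1 and its variants was near that of the whole lists. FOXA1dbd peaks overlapped 4 of the 23 FOXA1 peaks (17.4%, 6.98 to 37.1; 17.3% of the whole list), and FOXA1nhaa peaks 10 (43.5%, 25.6 to 63.2; 39.7%). FOXA1rraa peaks overlapped 13 (56.5%, 36.8 to 74.4; 39.9%), of which 5 were rows with the same coordinates. With such rows left out, 8 of 23 (34.8%) remained. The FOXA1rraa peaks that overlapped these FOXA1 peaks were all rows of the FOXA1nhaa list. No variant overlapped 8 of the 23 (34.8%; 41.5% of the list) and all 3 overlapped 2 (8.70%; 8.21%). Each whole-list share lay within the interval of the share at the 8 genes.

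Seen from the variants, 5 of 7 FOXA1dbd peaks overlapped a FOXA1 peak (71.4%, 35.9 to 91.8), where 96.2% of the whole list did. For FOXA1nhaa it was 12 of 25 (48%; 58.4% of the list) and for FOXA1rraa 15 of 21 (71.4%; upper bound 86.2%; 86.8% of the list). The FOXA1dbd and FOXA1rraa whole-list shares were above the upper bound of the intervals, each over few peaks. The FOXA1rraa peaks at the 8 genes were of 3 kinds by their deposited names. There were 10 rows of the FOXA1nhaa list (named FOXA1_3), 5 rows of the FOXA1 list (HALOIP1) and 6 rows named Nonspecific_FOX. These last 6 overlapped no peak of another list. None of the 3 names mentions rraa, and what Nonspecific_FOX stands for is not explained by the name. At these genes the agreement of FOXA1rraa with the other lists thus rested on shared rows alone.

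HNF4A and FOXA1 peaks did not meet at any of the 8 genes. Overlap was found for 0 of 23 FOXA1 peaks (upper bound 14.3%; 1.68% of the whole list) and 0 of 21 HNF4A peaks (upper bound 15.5%; 6.76% of the list). The 21 include the 10 coding-exon peaks. Both whole-list shares lay below the upper bounds, so the values of 0 do not set these genes apart. The 1 site where HNF4A coincided with a FOXA1 construct was chr14:38113410-38113849, upstream of FOXA1 in an intron of TTC6, with an HNF4A score of 59 and a FOXA1nhaa score of 61.

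A further 22 liver transcription factor genes were counted by the same rule. They held 114 FOXA1, 18 FOXA1dbd, 80 FOXA1nhaa, 50 FOXA1rraa and 121 HNF4A peaks, and at least 1 peak was found at 18, 9, 17, 14 and 22 of them in that order, where 87.1%, 59.6%, 81.7%, 74.9% and 83.5% of all genes have one. Their median density of HNF4A peaks was 3.48 per 100 kb, against 1.26 at the 8 genes and 2.29 over all genes. HNF4A had a peak within 1000 bp of a start at 11 of the 22, such as CEBPA, HHEX and RXRA, a share near the 47.3% of all genes. The genes with most FOXA1 peaks were NR1I2 (18), the xenobiotic receptor PXR, and NR2F1 (17), an orphan nuclear receptor. Those with most HNF4A peaks were NR0B2 (12), the bile acid-induced repressor SHP, and TBX3 (12), a T-box repressor.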

How the data were processed

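Peak lists of HALO-tag ChIP-seq in BJ fibroblasts were analysed, 1 full list for each of 5 constructs, plus a down-sampled FOXA1 list used as an alternative. The submitters' processing notes name Bowtie2 2.3.4.1, Picard, GATK 4.2.6.0, bedtools 2.27.1, MACS2 2.2.7.1, deepTools 3.5.0 and hg19, with no role or order, and whether peaks were called on single or pooled libraries is not given in the sources used here. The deposited FOXA1 lists hold a score per peak. Each other deposited list gives, as the authors' peak caller wrote them, score, fold enrichment (a ratio), −log10 p, −log10 q and summit offset. These are a peak's own values and served only to describe and rank peaks within a list, by −log10 q or, for FOXA1, by score. Read depth is unknown, and no read counts were used.

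Every row end lay within the GRCh37 chromosome. Genes, exons and starts came from GENCODE 44 lifted to GRCh37, and all 8 genes were matched by symbol. Rows with repeated coordinates were counted once. Overlap meant at least 1 bp. A centre was the midpoint for every FOXA1 peak, as no summit was read for that list. In the other lists it was the summit, or the midpoint of rows that did not contain their summit. The motif windows of FOXA1 and of the other lists were thus centred differently. Background shares were computed over 20163 protein-coding genes or over whole lists, without 1 mitochondrial HNF4A row for the motif search. The code (Python 3, pandas, scipy) was tested on simulated lists with planted windows and cores. No test between constructs was possible.

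For each gene and list the text names the highest-ranked peak, every peak within 1000 bp of a start, every peak confined to exons of FOXA1 or HNF4A and further peaks where needed to account for a gene, and for the 22 other genes the top 2 by peaks of FOXA1 and of HNF4A. 1 peak that this rule selects for its sequence is not reported here beyond the counts. The genes, lists and rules were chosen with earlier results of these data known. Alternatives covered the window, list length, merged rows, the definition of overlap and the motif window.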

Additional observations from a re-analysis of the deposited data

How the results depend on the processing

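No paired analysis was possible because the lists carry no replicate numbers and stand 1 to a construct, which also leaves no replicate to omit. The peak counts follow the window. With the gene body alone they were 9 (FOXA1), 1 (FOXA1dbd), 8 (FOXA1nhaa), 5 (FOXA1rraa) and 13 (HNF4A). With 10 kb on either side they were 9, 2, 10 and 5 for FOXA1, FOXA1dbd, FOXA1nhaa and FOXA1rraa, and with 100 kb they were 70, 19, 56, 39 and 35 for the 5 lists in the same order. The top 50% of each list left 13 FOXA1, 4 FOXA1dbd, 6 FOXA1rraa and 7 HNF4A peaks. Cutting each list to the 28831 peaks of the shortest left 4 FOXA1, 3 FOXA1nhaa and 4 FOXA1rraa peaks, and the down-sampled FOXA1 list had 7. Leaving out the rows on HNF4A coding exons left 11 HNF4A peaks. Peaks confined to exons of FOXA1 and HNF4A numbered 13 with at least 1 exon base, 11 with at least 1 coding base and 10 with at least 50% exon bases. The share of FOXA1 peaks overlapped by FOXA1nhaa was 22.2% with the gene body alone and 22.2% with 10 kb, over 9 peaks. That overlapped by FOXA1rraa was 34.8% without the rows that have FOXA1 coordinates. The FOXA1rraa rows behind this share were all rows of the FOXA1nhaa list. The other 40 values stayed within 1.5 times the count or within the interval of the share. Among them, merged rows gave the same counts, and the overlap of FOXA1 peaks with HNF4A stayed at 0 except with 100 kb, where it was 1.43% (1 of 70). The forkhead core share of FOXA1 peaks was 13% in the central 100 bp and 34.8% over whole peaks. It was 12.9% (9 of 70) with 100 kb on either side, below the 18.2% of the whole list, whereas the 26.1% at 50 kb was above it. The number of peaks limits what could be seen, and the depth of the libraries is unknown.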
